A study of Mus musculus with 9 samples.

Results

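The genes described here are 46 genes of the cell division cycle: 26 that act in mitosis and 20 that act in S phase, when DNA is replicated. They were taken by symbol from a table of 35673 genes, and all 46 were present and passed the filter on low counts. The table holds bulk RNA sequencing of mouse basophils, rare granulocytes of allergic inflammation that leave the bone marrow as mature, normally non-dividing cells. Wild-type C57BL/6J marrow was grown with 0.3 ng/mL of the cytokine interleukin-3 (IL-3) over 7 days, and cells bearing the surface integrin CD49b were collected by magnetic sorting, so the cells had been grown from dividing precursors. Portions of 10000 cells were then kept for 4 h in 1 of 3 conditions, with 3 libraries each. Difamilast cells received IL-3 and the alarmin IL-33, each at 10 ng/mL, together with 3 µM difamilast, an inhibitor of phosphodiesterase 4, the enzyme family that breaks down cyclic AMP in immune cells. Stimulated cells received the same cytokines with the solvent DMSO, and resting cells received PBS with DMSO. The study asks how the inhibitor alters the response to the cytokines; here the replication and mitosis genes are followed through both steps and set against each other.

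A dividing cell transcribes these genes in waves. E2F factors, released from retinoblastoma-type pocket proteins, switch on genes for origin licensing, the replicative helicase and nucleotide supply around entry into S phase. Later, in G2, the factors B-Myb (Mybl2) and FOXM1, working with the MuvB core complex, switch on genes for the spindle, the kinetochore, the mitotic kinases and the enzymes that destroy cyclins. The same MuvB core, joined to other partners in the DREAM complex, holds both waves down in cells that have left the cycle. IL-3 is the growth factor on which these cultures depend.

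Library totals ran from 24812305 to 30299575 counts for difamilast, from 11798711 to 38098584 for stimulated and from 6261446 to 14795353 for resting cells. A member had between 8 and 3831 counts in a library, so the least abundant ones, Ccne2 and Cdc6, are measured with the widest counting error. Levels below are counts scaled to TMM effective library totals and a common library size (CPM), and fold changes are log2 values with the standard error of the fit. The TMM factors ran from 1.23 to 1.321 in resting libraries and from 0.8508 to 0.9157 in cytokine-treated ones. The size of each change against resting cells therefore depends on this scaling. The basophil protease gene Mcpt8 was abundant in all groups and averaged 2802 ± 429 CPM in difamilast, 3455 ± 229 in stimulated and 1434 ± 415 in resting cells (SD, n = 3 each). The labels do not say that the 3 libraries of a group came from separate cultures or mice, so the p-values speak of the spread among libraries, part of which may be technical.

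Nearly the whole mitosis set was lower after 4 h of stimulation, and a smaller part of the replication set. Of 26 mitosis genes, 24 were lower in stimulated than in resting cells and none was higher, by edgeR's quasi-likelihood test at an adjusted p below 0.05. Of 20 replication genes, 12 were lower and 1, Tyms, was higher. Over all 21341 tested genes, 16.4% were called lower and 15.3% higher. The median log2 fold change was -1.39 for the mitosis genes (2.62-fold lower) and -0.79 for the replication genes (1.73-fold lower), beside 0.06 over all tested genes. With the inhibitor present the mitosis count was again 24 of 26, and the replication count was 10 lower and 1 higher, where 16.4% of all tested genes were called lower and 16.4% higher in difamilast against resting cells. These comparisons share the resting libraries, so the second is not independent of the first. In bulk libraries, fewer cells in cycle and less RNA of these genes per cell cannot be told apart.

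Summed over the 26 mitosis genes, the level was 213, 226 and 202 CPM in difamilast cells, 195, 180.0 and 192 CPM in stimulated cells, and 425, 465 and 486 CPM in resting cells. Every resting library lay far above the other 6, and difamilast libraries lay just above stimulated ones, with no overlap. Most of that last gap lay in Cenpa (mean 59.7 CPM in difamilast, 45.2 in stimulated cells) and Kif23 (23.2 and 14.2). The mean log2 CPM of the set, minus its resting mean, did overlap. It was -1.17, -1.13 and -1.16 in difamilast and -1.26, -1.33 and -1.15 in stimulated libraries. Summed over the 20 replication genes, the level was 314, 318 and 279 CPM in difamilast cells, 299, 297 and 307 CPM in stimulated cells, and 406, 371 and 359 CPM in resting cells. Resting libraries were again above the other 6, by a narrow gap, and difamilast and stimulated libraries overlapped; Pcna alone made up a large part of this sum.

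**Figure D1:**
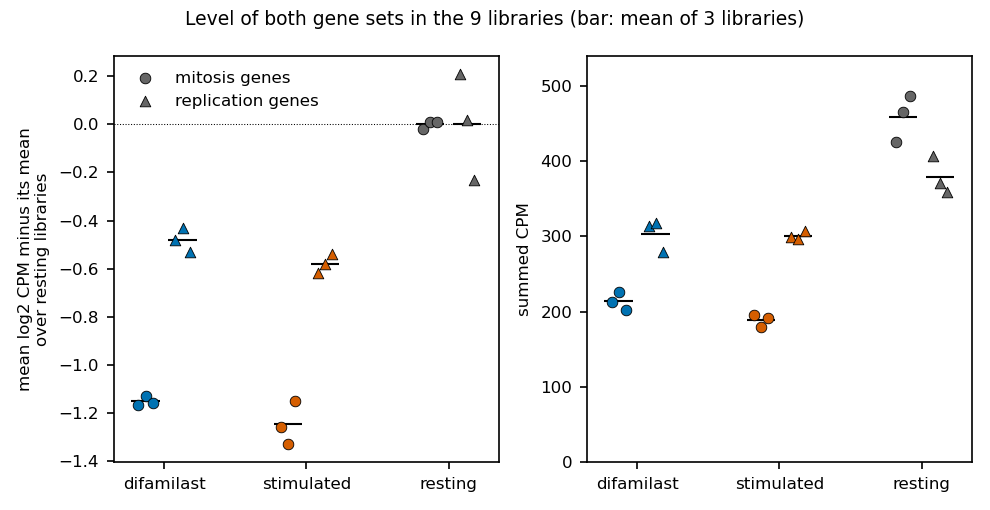
Each point is 1 library; circles are the 26 mitosis genes and triangles the 20 replication genes, for difamilast, stimulated and resting cells from left to right, with bars at the mean of 3 libraries. The left panel gives the mean log2 CPM of the set minus its mean over resting libraries, between -1.33 and -1.13 for mitosis genes and between -0.62 and -0.43 for replication genes in cytokine-treated cells; the right panel gives summed CPM.

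The mitosis genes were shifted further down than the replication genes. In stimulated against resting cells, 23 of 26 mitosis genes lay below the median of the replication genes, and 2 of 20 replication genes (E2f8 and Gmnn) lay below the median of the mitosis genes. A fall of more than 1 log2 unit was seen in 17 mitosis genes and 5 replication genes. The quartiles were -1.47 and -0.96 for mitosis genes, and -1.01 and -0.14 for replication genes. Libraries did not overlap for 24 mitosis genes and 11 replication genes in the lower direction, where this held for 20.6% of all tested genes. Leaving out 6 genes that act in both phases (Ccna2, Top2a, Mki67, Gmnn, Mybl2 and E2f8) gave medians of -1.42 and -0.75.

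**Figure D2:**
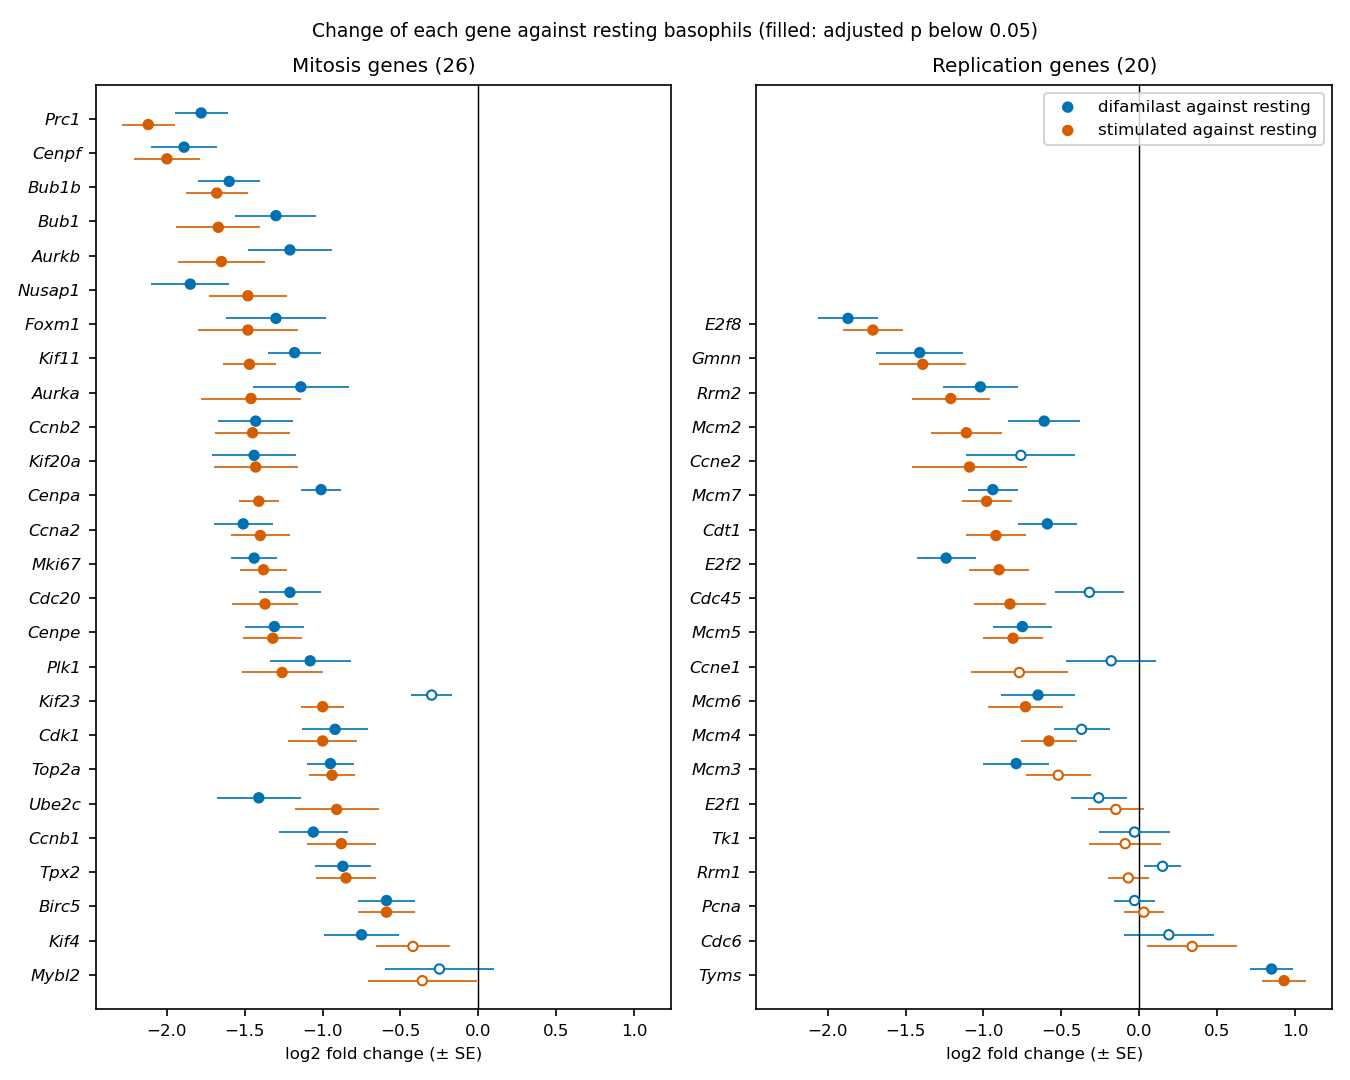
Log2 fold change of each gene against resting cells, with its standard error, for difamilast (blue, upper point) and stimulated cells (orange, lower point); filled points passed an adjusted p of 0.05. All 26 mitosis genes lie left of 0 in both comparisons, while the replication genes run from E2f8 at -1.71 to Tyms at 0.93 in stimulated cells.

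The changes that follow are those of stimulated against resting cells, with the difamilast libraries shown beside them. Among the mitosis genes the kinetochore and checkpoint group fell furthest, with all 5 members lower and a median of -1.67. Cenpf, a large kinetochore protein of G2 and mitosis, had 2.81, 2.92 and 2.94 CPM in difamilast cells, 3.14, 2.97 and 2.08 CPM in stimulated cells and 9.09, 10.8 and 12.5 CPM in resting cells, a log2 fold change of -2.00 ± 0.21 (edgeR adjusted p = 3.51e-06). Every resting library stood far above the other 6. The spindle checkpoint kinases Bub1 and Bub1b, which delay anaphase until chromosomes are attached, changed by -1.67 ± 0.27 and -1.68 ± 0.20 (adjusted p = 0.000232 and 1.33e-05). Cenpe, the motor that brings chromosomes to the spindle equator, fell by 1.32 on the log2 scale. Cenpa, the histone variant that marks centromeres, had the highest level per length of the mitosis genes. It was at 61.9, 63.8 and 53.5 CPM in difamilast cells, 47.9, 43.9 and 43.9 CPM in stimulated cells and 95.9, 131 and 135 CPM in resting cells, and changed by -1.41 ± 0.13 (adjusted p = 9.67e-07). Its 3 groups did not overlap, with difamilast cells between the others.

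Of the 7 genes for spindle motors and midzone proteins, 6 were lower in stimulated cells, with a median of -1.43. Prc1, on chromosome 7 from 80294450 to 80316259 (GRCm38, plus strand), bundles antiparallel microtubules of the anaphase midzone and had the largest change of all 46 genes. It was at 6.71, 7.24 and 5.36 CPM in difamilast cells, 4.85, 4.87 and 5.48 CPM in stimulated cells and 19.7, 23.7 and 22.9 CPM in resting cells, a log2 fold change of -2.12 ± 0.17 (4.34-fold lower, adjusted p = 1.58e-07). No resting library came near the others. Its fellow midzone gene Kif23, the kinesin of the centralspindlin complex that organises cytokinesis, fell by 1.00 ± 0.14 (adjusted p = 4.75e-05). Kif11, the motor that separates spindle poles, changed by -1.47 ± 0.17, Kif20a by -1.43 ± 0.27, Nusap1 by -1.48 ± 0.25 and Tpx2, which activates Aurora A on the spindle, by -0.85 ± 0.19. Kif4, a chromosome-bound kinesin that shortens the midzone, was the exception: it averaged 1.9 ± 0.342 CPM in difamilast cells, 2.37 ± 0.159 CPM in stimulated cells and 3.15 ± 0.487 CPM in resting cells (SD, n = 3 each), and did not pass the test (log2 fold change -0.42 ± 0.24, adjusted p = 0.207). Kif20a shares 1271 exonic bases on opposite strands with Cdc23, Prc1 911 with Rccd1, Kif4 832 with Pdzd11 and Nusap1 172 with Oip5; how the counting treated strand is not given in the sources used here, so their counts may hold reads of those neighbours.

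All 8 mitotic kinases and cyclins, with the kinase partner Birc5, were lower, with a median of -1.33. Cdk1, the kinase that drives entry into mitosis, was at 7.04, 6.51 and 5.55 CPM in difamilast cells, 4.28, 6.26 and 7.17 CPM in stimulated cells and 9.23, 13.4 and 13.8 CPM in resting cells, and fell by 1.00 ± 0.22 on the log2 scale (adjusted p = 0.00228). Its cyclin partner Ccnb1 was at 3.54, 3.58 and 4.22 CPM in difamilast cells, 3.23, 3.65 and 5.68 CPM in stimulated cells and 7.34, 8.31 and 7.98 CPM in resting cells, a change of -0.88 ± 0.22 (adjusted p = 0.00651). Both had every resting library above the other 6. Ccnb1 has pseudogene copies of at least 96.6% identity, which held up to 120 counts each against 936 for Ccnb1. The other mitotic cyclins fell more, Ccnb2 by 1.45 ± 0.24 and Ccna2, which also acts in S phase, by 1.40 ± 0.19 on the log2 scale; Ccna2 shares 510 exonic bases with Exosc9. Plk1, the polo-like kinase of spindle assembly, was at 2.49, 2.08 and 2.85 CPM in difamilast cells, 1.24, 2.52 and 2.4 CPM in stimulated cells and 5.45, 5.78 and 4.18 CPM in resting cells, a change of -1.26 ± 0.26 (adjusted p = 0.00174). Aurkb, the kinase of the chromosomal passenger complex that corrects wrong attachments, was at 3.28, 3.47 and 2.89 CPM in difamilast cells, 3.62, 1.42 and 2.56 CPM in stimulated cells and 8.25, 8.09 and 5.83 CPM in resting cells, a change of -1.65 ± 0.28 (adjusted p = 0.000367). For both kinases the lowest resting library was still above the highest stimulated library. Aurka, the centrosomal Aurora kinase, changed by -1.46 ± 0.32. Birc5, which encodes survivin, a subunit of that passenger complex, had the smallest change in the group, -0.59 ± 0.18 (adjusted p = 0.0213); it lost its call when resting replicate 2 was left out (adjusted p = 0.0684), as with stimulated replicate 1 (0.0598) or stimulated replicate 3 (0.0538), and after thinning to the shallowest library (0.0921).

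The 2 members that act with the anaphase promoting complex, the ubiquitin ligase that ends mitosis, were both lower. Its activator Cdc20 was at 3.36, 4.28 and 2.85 CPM in difamilast cells, 3.43, 3.06 and 3.02 CPM in stimulated cells and 8.6, 7.43 and 8.36 CPM in resting cells, a change of -1.37 ± 0.21 (adjusted p = 0.000108). Its ubiquitin-conjugating enzyme Ube2c was at 5.38, 6.25 and 4.36 CPM in difamilast cells, 7.23, 8.49 and 6.88 CPM in stimulated cells and 7.41, 18.7 and 16.7 CPM in resting cells, a change of -0.91 ± 0.27 (adjusted p = 0.0183). For Ube2c, resting replicate 1 lay inside the range of the stimulated libraries while the other 2 resting libraries were far above, and the call was lost without resting replicate 2 (-0.67, adjusted p = 0.0903), resting replicate 3 (-0.83, 0.0506) or stimulated replicate 3 (-0.84, 0.0735). Ube2c shares 592 exonic bases with Tnnc2 on the other strand. Mki67, whose product Ki-67 coats mitotic chromosomes and is the usual marker of cells in cycle, was at 16.2, 23.8 and 19.8 CPM in difamilast cells, 22.9, 18.4 and 21.2 CPM in stimulated cells and 52, 54.1 and 56.4 CPM in resting cells, a change of -1.38 ± 0.15 (adjusted p = 3.67e-06). Top2a, the topoisomerase that untangles sister chromatids, was at 21.9, 22.5 and 20.2 CPM in difamilast cells, 27.6, 18.9 and 19.6 CPM in stimulated cells and 41.3, 40.7 and 43.7 CPM in resting cells, a change of -0.94 ± 0.15 (adjusted p = 0.00016). Both markers had tight resting libraries that stood clear of the other 6.

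Of the factors that switch on the mitotic wave, Foxm1 was called lower and Mybl2 was not, and the difference between them was not tested. Foxm1 was at 1.95, 2.3 and 2.51 CPM in difamilast cells, 1.62, 1.57 and 2.63 CPM in stimulated cells and 8.04, 5.23 and 2.91 CPM in resting cells, a change of -1.48 ± 0.32 (adjusted p = 0.00256). Its resting libraries spread widely but all lay above the others. Mybl2, itself an E2F target that rises at entry into S phase, was at 1.98, 1.75 and 2.23 CPM in difamilast cells, 2.09, 1.37 and 2.14 CPM in stimulated cells and 2.24, 1.38 and 3.93 CPM in resting cells, a change of -0.36 ± 0.35 that did not pass (adjusted p = 0.473), with overlapping groups. The sign of its change turned in 2 of 17 alternatives.

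**Figure D3:**
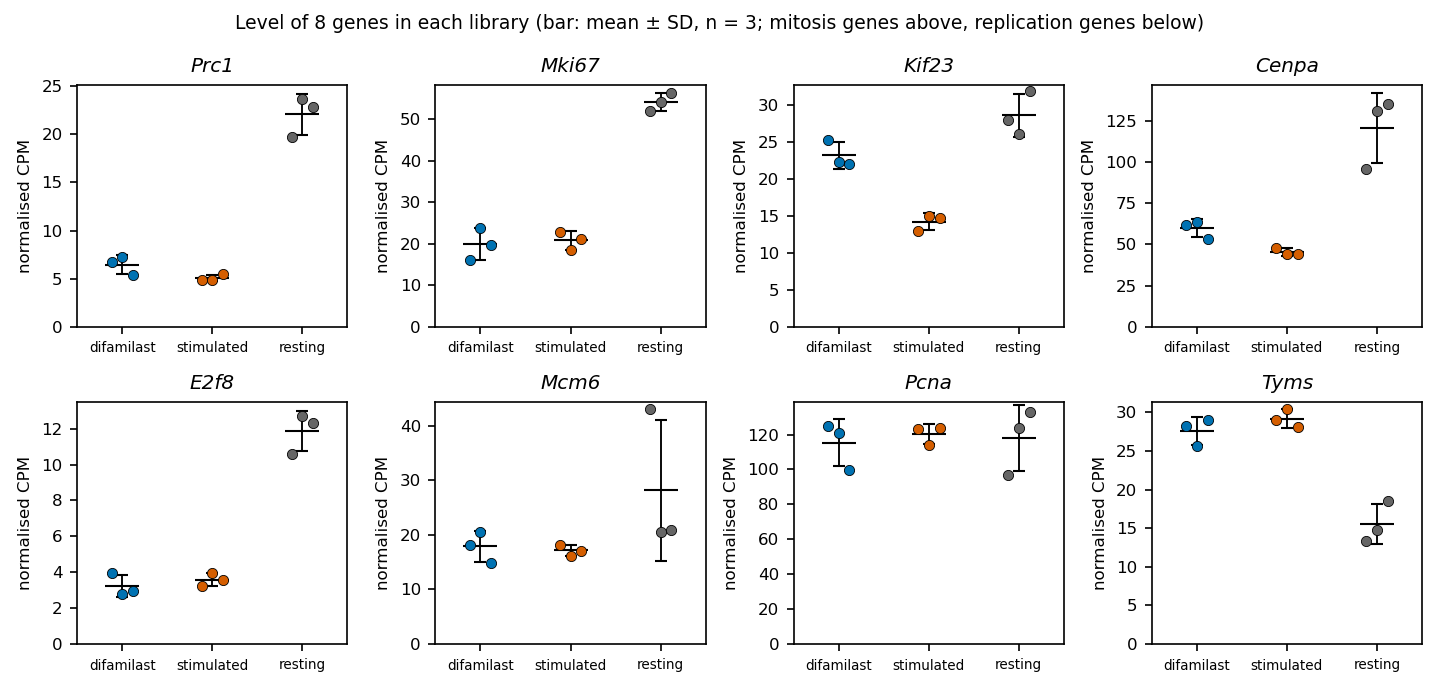
Normalised CPM of 4 mitosis genes (upper row) and 4 replication genes (lower row) in each of the 3 difamilast, 3 stimulated and 3 resting libraries, with the mean and SD of each group. Prc1, Mki67 and E2f8 are highest in the resting libraries, Kif23 is higher in difamilast than in stimulated cells, resting replicate 1 stands apart for Mcm6 at 43.0 CPM, Pcna overlaps in all groups, and Tyms is lowest in resting cells.

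The replication genes were more mixed. Of 11 genes for origin licensing and the replication fork, 8 were lower and 3 were not called, with a median of -0.81. The MCM2 to MCM7 proteins form the ring of the replicative helicase that is loaded at origins. Mcm2 was at 6.17, 6.21 and 6.73 CPM in difamilast cells, 5.14, 3.41 and 5.16 CPM in stimulated cells and 12.7, 9.47 and 6.71 CPM in resting cells, a change of -1.11 ± 0.23 (adjusted p = 0.00195). Mcm5 was at 8.3, 11.4 and 9.53 CPM in difamilast cells, 9.42, 8.79 and 9.89 CPM in stimulated cells and 20.9, 13.8 and 14.4 CPM in resting cells, a change of -0.81 ± 0.19 (adjusted p = 0.00403). Both had the highest value in resting replicate 1, and no stimulated library reached a resting one. Mcm7 changed by -0.98 ± 0.16 (adjusted p = 0.000267) and shares 321 exonic bases with Ap4m1 on the other strand. Mcm4 changed by -0.58 ± 0.18 (adjusted p = 0.023), a call lost without resting replicate 1 (0.0523), stimulated replicate 1 (0.0637) or stimulated replicate 2 (0.11). Mcm3 changed by -0.52 ± 0.21 and did not pass (adjusted p = 0.0708); it did with DESeq2 (0.0418), with no filter on low counts (0.0101), and without resting replicate 2 or 3 (0.0203 and 0.0272).

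Mcm6 shows how much 1 library can carry. It was at 18.2, 20.6 and 14.9 CPM in difamilast cells, 18.2, 16.1 and 17.1 CPM in stimulated cells and 43, 20.6 and 20.8 CPM in resting cells, a change of -0.73 ± 0.24 (adjusted p = 0.0289). Resting replicate 1 was far above the other 2 resting libraries, and without it the change was -0.31 and did not pass (adjusted p = 0.137); nor did it pass without stimulated replicate 1, 2 or 3 (0.0505, 0.0993 and 0.0796). Resting replicate 1 was the highest resting library for 13 of 20 replication genes but for only 6 of 26 mitosis genes, for which resting replicate 3 was highest in 12. Without resting replicate 1, 9 replication genes and 24 mitosis genes were lower in stimulated cells, with medians of -0.67 and -1.31.

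The other licensing genes act on the MCM ring. Cdt1, a factor that loads it, was at 8.15, 7.64 and 7.11 CPM in difamilast cells, 5.52, 5.97 and 6.65 CPM in stimulated cells and 14.5, 8.97 and 11.1 CPM in resting cells, a change of -0.92 ± 0.19 (adjusted p = 0.00192), with all resting libraries above the rest. Its inhibitor Gmnn (geminin), which blocks loading from S phase to mitosis and is degraded by the anaphase promoting complex, was at 4.98, 4.75 and 5.79 CPM in difamilast cells, 5.8, 3.86 and 6.16 CPM in stimulated cells and 7.48, 17.3 and 16.5 CPM in resting cells, a change of -1.39 ± 0.28 (adjusted p = 0.00135). As for Ube2c, resting replicate 1 was well under the other 2 resting libraries. Cdc45, the helicase cofactor that fires origins, changed by -0.83 ± 0.23 (adjusted p = 0.0126) and shares 209 exonic bases with Ufd1 on the other strand. Cdc6, another loading factor, was at 1.48, 2.16 and 1.71 CPM in difamilast cells, 1.71, 2.14 and 2.01 CPM in stimulated cells and 1.75, 1.76 and 1.01 CPM in resting cells, a change of 0.34 ± 0.29 that did not pass (adjusted p = 0.416), with overlapping groups.

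Pcna, the sliding clamp of DNA polymerases, had the highest level per length of the 46 genes, 77.7 CPM per kb of exonic length in resting cells, where Cenpa followed with 31.6 and Gmnn with 12.2. It was at 125, 121 and 99.8 CPM in difamilast cells, 123, 114 and 124 CPM in stimulated cells and 96.8, 124 and 133 CPM in resting cells, a change of 0.03 ± 0.13 (adjusted p = 0.9). All groups overlapped. Its processed pseudogene Pcna-ps2 matches it at 99.2% over 781 bases and held 5946 counts over all libraries against 22524 for Pcna, so the share of reads that belongs to each is uncertain.

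The 4 genes for the supply of DNA building blocks went in different directions, with a median of -0.08. Rrm2, the S phase-restricted subunit of ribonucleotide reductase, was at 5.88, 6.32 and 4.36 CPM in difamilast cells, 5.42, 5.49 and 3.83 CPM in stimulated cells and 14.7, 11.1 and 7.47 CPM in resting cells, a change of -1.21 ± 0.25 (adjusted p = 0.0015). All resting libraries were above the rest. Its partner subunit Rrm1 had a change of -0.07 ± 0.13 (adjusted p = 0.737) and the thymidine kinase Tk1 of -0.09 ± 0.23 (adjusted p = 0.82), neither passing. Tyms, the thymidylate synthase gene on chromosome 5 from 30058202 to 30073617 (GRCm38, minus strand), was the only one of the 46 called higher. It was at 28.3, 25.6 and 29 CPM in difamilast cells, 29, 30.5 and 28.1 CPM in stimulated cells and 13.4, 14.7 and 18.5 CPM in resting cells, a change of 0.93 ± 0.14 (1.9-fold, adjusted p = 0.000133), and no resting library reached any other. Part of the annotated Tyms transcripts, at most 361 bases, matches transcripts of unrelated genes at 95% to 97.7% identity, among them the basophil gene Cd200r3, with 117605 counts in all against 4897 for Tyms. Cd200r3 itself changed by 0.08 ± 0.11 (adjusted p = 0.605); whether reads of such copies were counted for Tyms was not tested.

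The E2F factors and the E cyclins, which start S phase, had 3 of 5 members lower. E2f8, an atypical E2F that represses the S phase programme in late S phase and G2, had the largest change of the replication set. It was at 3.93, 2.81 and 2.94 CPM in difamilast cells, 3.23, 3.95 and 3.54 CPM in stimulated cells and 10.6, 12.7 and 12.3 CPM in resting cells, a change of -1.71 ± 0.19 (3.27-fold lower, adjusted p = 6.96e-06), with resting libraries far above the rest; it shares 610 exonic bases with Gm2788 on the other strand. E2f2, an activator, was at 6.68, 6.4 and 5.88 CPM in difamilast cells, 5.8, 9.02 and 8.66 CPM in stimulated cells and 17, 15 and 12.4 CPM in resting cells, a change of -0.90 ± 0.19 (adjusted p = 0.00184). E2f1, the other activator here, was at 11.7, 12.2 and 12.2 CPM in difamilast cells, 11.4, 16.3 and 10.9 CPM in stimulated cells and 17.1, 13.2 and 12.8 CPM in resting cells, a change of -0.15 ± 0.18 that did not pass (adjusted p = 0.566). The related factors thus gave different values, since all resting libraries of E2f2 were above the others and those of E2f1 overlapped with them. Ccne2 was at 1.41, 1.57 and 1.66 CPM in difamilast cells, 1.14, 1.01 and 1.49 CPM in stimulated cells and 3.78, 2.7 and 1.01 CPM in resting cells, a change of -1.09 ± 0.37 (adjusted p = 0.0335). The gene has few reads and shares 609 exonic bases with Ints8 on the other strand; its call was lost without resting replicate 1 (-0.75, adjusted p = 0.166), resting replicate 2 (-1.11, 0.0655), stimulated replicate 1 (-1.10, 0.0686) or stimulated replicate 2 (-0.94, 0.134), with only the compared groups fitted (0.0566), with the replicate number as a block (0.0616) and after thinning to the shallowest library (0.191). Ccne1 was at 1.95, 1.75 and 2.75 CPM in difamilast cells, 1.24, 1.54 and 1.39 CPM in stimulated cells and 2.38, 3.08 and 1.52 CPM in resting cells, a change of -0.77 ± 0.31 that did not pass (adjusted p = 0.0694), and did without resting replicate 3 (-0.99, adjusted p = 0.0249).

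Summed markers of basophils and of other cells differed between the same groups. Summed CPM of 12 basophil markers ran from 14988 to 15679 in difamilast, from 13256 to 14109.7 in stimulated and from 7330.4 to 8446 in resting cells. Of these 12, 8 were higher in stimulated against resting cells and 1, Itga2, was lower (-0.81, edgeR adjusted p = 0.000529). Among all tested genes 15.3% were higher and 16.4% lower. For 11 monocyte and macrophage markers the sum ran from 4363 to 4701, from 4527 to 4786 and from 5842 to 7245 in the same order of groups. In stimulated against resting cells 6 of these 11 were lower and 1 higher, where 16.4% of all tested genes were lower and 15.3% higher. Ccr2 changed by -2.27 and Cx3cr1 by -1.75 on the log2 scale. For 10 progenitor markers the sums ran from 278 to 294, from 313 to 337 and from 327 to 368. Spi1 alone made up a large part of them, with means of 147, 176 and 178 CPM in the same order of groups. Of these 10, 3 were lower and 2 higher in stimulated against resting cells, beside the same 16.4% and 15.3% of all tested genes. Kit was among the lower (-0.59, edgeR adjusted p = 0.00727) and Cd34 among the higher (0.54, edgeR adjusted p = 0.0255). For the 5 tested of 7 erythroid and megakaryocyte markers the sums ran from 294 to 351, from 240.1 to 288 and from 386 to 605. Only 1 of these 5 was called in stimulated against resting cells, Itga2b, with a mean of 169 CPM in stimulated and 334 CPM in resting cells. It was lower, beside the same 16.4% of all tested genes. For the 6 tested of 7 mast cell markers the sums ran from 956 to 994, from 1035 to 1122 and from 528 to 831. Of these 6, 2 were higher in stimulated against resting cells and 1, Kit, was lower, beside the same 15.3% and 16.4% of all tested genes. Most of the mast cell rise lay in Tph1, with a mean of 304 CPM in stimulated and 55.5 CPM in resting cells. The sums of neutrophil, dendritic cell and NK and T cell markers overlapped between stimulated and resting cells. No marker of these lists was at 0 in every library. Their part in the fall of the cycle genes was not tested.

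The promoters of the sets differ in the letters that E2F, MuvB and the factor NF-Y are known to bind, and these were counted as a description of the sets. RefSeq promoter windows (GRCm38.p6, 250 bases before to 50 after the transcript start) matched 38 of the 46 genes, 21 of the mitosis and 17 of the replication set. The motifs searched on both strands were the cell cycle homology region (CHR), spelled TTTGAA with the variant form TTTAAA, and the NF-Y box CCAAT. E2F sites were searched as TTCCCGC, as the variant TTGGCGC, as the variant TTCGCGC and as the variant TTGCCGC. An E2F and a CCAAT match can share bases. Other spellings were not searched, so a promoter counted as without an E2F site may still hold one. A CHR was found in 18 of 21 mitosis promoters (85.7%), 7 of 17 replication promoters (41.2%) and 27.8% of 27025 promoters of all genes. An E2F site was found in 3 of 21 mitosis promoters (14.3%), 10 of 17 replication promoters (58.8%) and 9.73% of all promoters. CCAAT was found in 18 of 21 (85.7%), 11 of 17 (64.7%) and 37.9%. A CHR together with a CCAAT box was held by 81.0% of mitosis, 29.4% of replication and 10.9% of all promoters. These shares describe the windows and do not show that a factor was bound there in these cells.

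The 150 bases before the start of 4 mitosis genes and 4 replication genes show both layouts. Capitals mark every match, on either strand, so that a CHR read from the other strand appears as TTCAAA, while the CCAAT box then reads ATTGG and an E2F site, for example, GCGCCAA. Mki67 (chr7:135716380-135716529, minus strand) and Top2a (chr11:99024190-99024339, minus strand) are the proliferation markers, Plk1 (chr7:122159285-122159434, plus strand) and Kif11 (chr19:37376232-37376381, plus strand) are a mitotic kinase and a spindle motor, each with CHR and CCAAT, and Mki67 also with an E2F site:
Mki67: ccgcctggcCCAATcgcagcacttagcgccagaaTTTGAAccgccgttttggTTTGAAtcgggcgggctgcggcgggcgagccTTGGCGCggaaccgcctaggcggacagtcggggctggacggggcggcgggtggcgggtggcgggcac
Top2a: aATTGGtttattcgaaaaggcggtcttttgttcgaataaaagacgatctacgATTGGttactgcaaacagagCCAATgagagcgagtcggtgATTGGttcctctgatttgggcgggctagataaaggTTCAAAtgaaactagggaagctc
Plk1: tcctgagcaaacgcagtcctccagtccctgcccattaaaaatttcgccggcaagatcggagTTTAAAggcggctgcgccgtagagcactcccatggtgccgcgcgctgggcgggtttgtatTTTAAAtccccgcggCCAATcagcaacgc
Kif11: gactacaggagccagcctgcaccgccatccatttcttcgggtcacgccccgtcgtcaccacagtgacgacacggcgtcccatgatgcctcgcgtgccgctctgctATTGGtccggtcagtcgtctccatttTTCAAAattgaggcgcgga

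Mcm6 (chr1:128359706-128359855, minus strand) and Rrm1 (chr7:102441545-102441694, plus strand) hold E2F sites and CCAAT boxes without a CHR, E2f8 (chr7:48881597-48881746, minus strand) holds all 3 kinds, and Tyms (chr5:30073626-30073775, minus strand), the gene that rose, holds none. In Mcm6 the capitals of 2 E2F matches on opposite strands run together, and in E2f8 a CCAAT box on the other strand shares bases with the E2F site:
Mcm6: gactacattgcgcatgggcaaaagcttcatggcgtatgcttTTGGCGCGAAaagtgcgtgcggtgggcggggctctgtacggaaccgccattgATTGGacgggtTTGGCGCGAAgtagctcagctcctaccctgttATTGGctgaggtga
Rrm1: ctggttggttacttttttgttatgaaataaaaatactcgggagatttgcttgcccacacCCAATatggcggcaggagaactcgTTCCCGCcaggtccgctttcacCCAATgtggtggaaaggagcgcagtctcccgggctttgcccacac
E2f8: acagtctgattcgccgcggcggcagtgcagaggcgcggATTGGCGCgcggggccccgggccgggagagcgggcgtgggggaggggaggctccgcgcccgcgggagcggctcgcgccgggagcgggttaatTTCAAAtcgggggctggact
Tyms: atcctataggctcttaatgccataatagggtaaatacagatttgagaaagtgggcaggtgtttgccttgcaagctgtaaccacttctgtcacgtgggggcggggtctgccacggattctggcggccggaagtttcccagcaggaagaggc

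Set beside the fold changes, the 10 replication genes with an E2F match had a median of -0.85 in stimulated against resting cells and the 7 without one -0.15. The group with a match holds genes that fell (E2f8, Rrm2, Mcm7) and genes that did not pass (Rrm1, Cdc6). The split by CCAAT gave a gap of similar size, with -0.83 for the 11 replication genes with a box and -0.12 for the 6 without one. The 7 replication genes with a CHR had a median of -0.83 and the 10 without one -0.34. In the mitosis set each split left 3 genes on one side. The median of the 3 with an E2F match, Mki67, Cdk1 and Ccnb1, fell by 1.00, less than the -1.39 of the 18 without one, the opposite order to the replication set. The 18 with a CHR had a median of -1.35 and the 3 without one, Bub1, Nusap1 and Mybl2, of -1.48; the 18 with CCAAT had -1.38 and the 3 without it, Nusap1, Birc5 and Mybl2, -0.59. These are medians of few genes, and many promoters hold more than 1 kind of match, so they are given as a description.

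**Figure D4:**
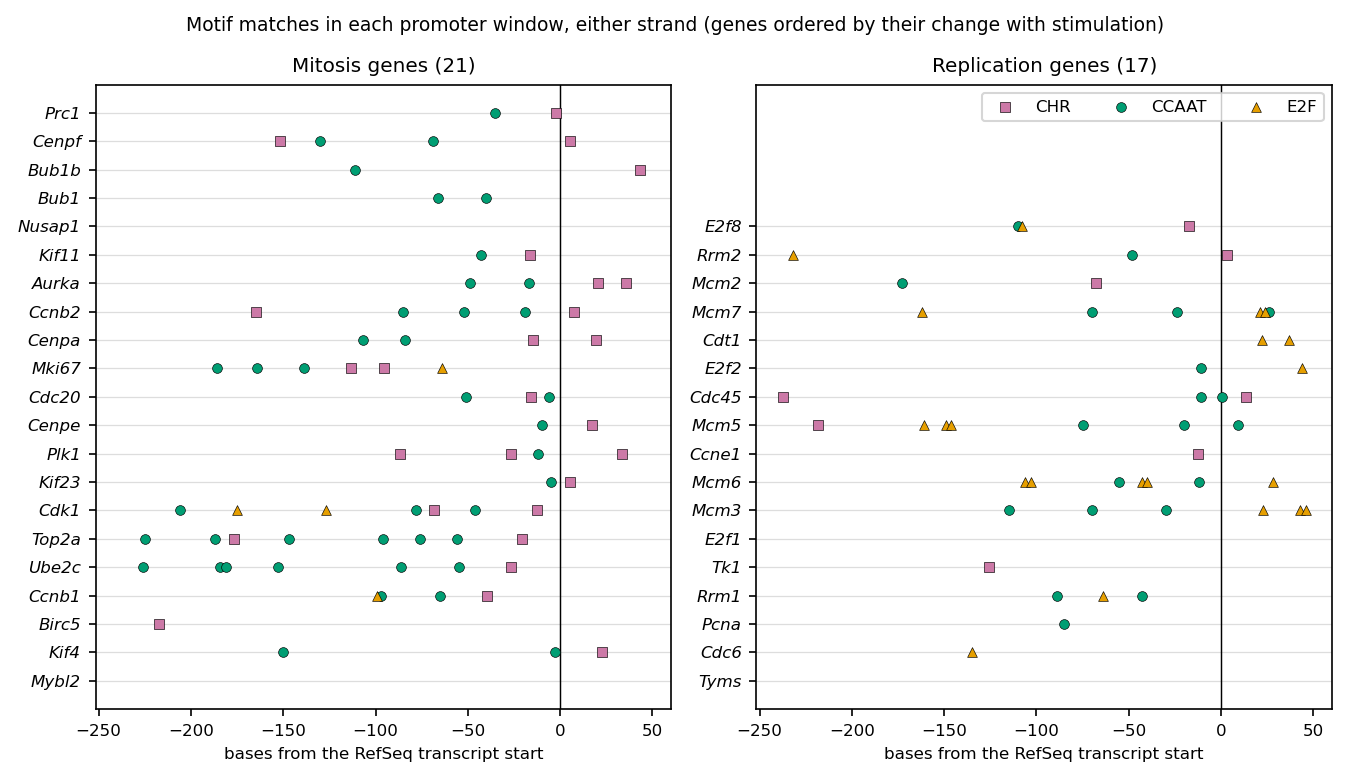
Distance in bases from the RefSeq transcript start of each CHR (squares), CCAAT (circles) and E2F match (triangles) in 21 mitosis and 17 replication promoters, genes ordered from the largest fall with stimulation at the top. CHR matches lie mostly near the start in mitosis genes, often downstream of CCAAT boxes, and E2F matches are found mainly among replication genes.

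Of all 46 genes, Kif23 was the one called between difamilast and stimulated cells. Thus 1 of 26 mitosis genes was called higher and none lower, and none of 20 replication genes was called in either direction, where 2.21% of all tested genes were called higher and 1.24% lower. A single call among 46 genes is no more than that background, so it is read as a value of Kif23 and not of the set. The median log2 fold change was 0.08 for the mitosis and 0.06 for the replication genes, beside -0.00 over all tested genes. At an unadjusted p below 0.05, 2 mitosis genes (Cenpa and Kif23) and 2 replication genes (Mcm2 and Cdc45) were higher and none was lower; 14.7% of all tested genes had such a p, 6.72% higher and 7.95% lower, so nothing is read from these 4 genes about the sets. DESeq2 and limma-voom also called 0 replication genes and 0 mitosis genes lower. Values above 0 were seen in 17 mitosis and 12 replication genes. The standard errors of single genes ran from 0.12 to 0.36, so small changes were not detectable for many of them.

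Kif23, on chromosome 9 from 61915905 to 61946774 (GRCm38, minus strand), was at 25.3, 22.3 and 22 CPM in difamilast cells, 12.9, 15 and 14.7 CPM in stimulated cells and 27.9, 26.1 and 31.8 CPM in resting cells. All 3 difamilast libraries were above all stimulated and below all resting libraries. The change was 0.70 ± 0.13 in difamilast against stimulated cells (1.62-fold, edgeR adjusted p = 0.00695). Its call was lost when stimulated replicate 1 (0.65, adjusted p = 0.0538) or difamilast replicate 1 was left out (0.64, 0.0523). In difamilast against resting cells the change was -0.30 ± 0.13, which missed the threshold (adjusted p = 0.105). The other midzone gene Prc1 had 0.34 ± 0.17 in difamilast against stimulated cells and did not pass (adjusted p = 0.374); its libraries overlapped.

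The next members by p also did not pass. Cenpa, with values given above, changed by 0.41 ± 0.13 (adjusted p = 0.131), with every difamilast library above every stimulated one; it passed without resting replicate 1 (adjusted p = 0.00636), with no filter on low counts (0.0432) and with only the compared groups fitted (0.0147). Ube2c changed by -0.50 ± 0.27 (adjusted p = 0.437) with difamilast libraries all below stimulated ones, and Kif11 by 0.29 ± 0.17 (adjusted p = 0.47) with them all above. In the replication set Cdc45 was at 5.45, 7.46 and 4.6 CPM in difamilast cells, 3.23, 4.27 and 4.61 CPM in stimulated cells and 8.67, 7.1 and 5.95 CPM in resting cells, a change of 0.50 ± 0.22 (adjusted p = 0.307), and 1 stimulated library reached the lowest difamilast one. Mcm2 changed by 0.50 ± 0.23 (adjusted p = 0.334) and Ccne1 by 0.59 ± 0.29 (adjusted p = 0.372), both with no overlap. E2f2 changed by -0.34 ± 0.19 and Rrm1 by 0.21 ± 0.12 (adjusted p = 0.451 and 0.463), both with overlap.

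**Figure D5:**
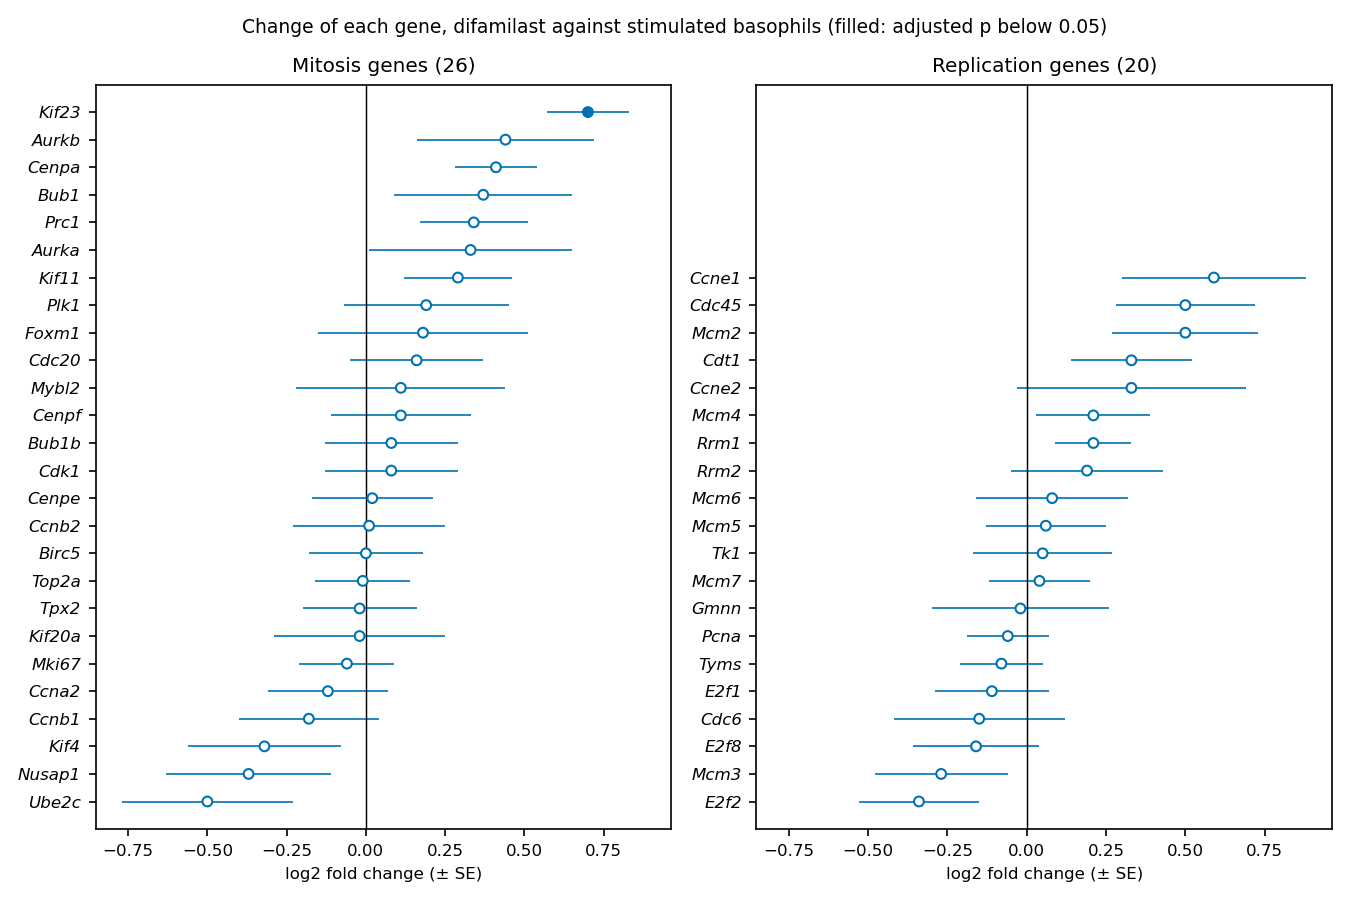
Log2 fold change of each gene in difamilast against stimulated cells with its standard error, for 26 mitosis genes (left) and 20 replication genes (right). Kif23, filled, is the only gene that passed an adjusted p of 0.05, at 0.70; the others lie between -0.50 and 0.59.

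Against resting cells, the difamilast libraries gave 23 of 26 mitosis genes lower that were also lower in stimulated cells, and 9 of 20 replication genes. Both comparisons share the resting libraries and the cytokines, which by itself favours such overlap. The share of all tested genes lower in both was not counted, so nothing is read from these overlaps. Kif23 was lower in stimulated cells alone and Kif4 in difamilast cells alone among mitosis genes; Ccne2, Mcm4 and Cdc45 were called in stimulated cells alone and Mcm3 in difamilast cells alone among replication genes. These are threshold crossings, and for none of them except Kif23 did the difference between difamilast and stimulated cells pass. Kif4 changed by -0.75 ± 0.24 (adjusted p = 0.0288), a call lost without resting replicate 2 (0.0986) or difamilast replicate 1 (0.117) or 3 (0.0652), with no filter on low counts (0.0576), with only the compared groups fitted (0.0539) and after thinning (0.135). The medians were -1.21 and -0.60, and 23 of 26 mitosis genes again lay below the replication median. Of the licensing genes, Mcm3 changed by -0.79 ± 0.21 (adjusted p = 0.00875), and by -0.46 without resting replicate 1; Mcm2 by -0.61 ± 0.23 (adjusted p = 0.0497), Mcm6 by -0.65 ± 0.24 (adjusted p = 0.0446) and Cdt1 by -0.59 ± 0.19 (adjusted p = 0.0257). The last 3 did not pass without resting replicate 1 (-0.41, -0.23 and -0.41; adjusted p = 0.18, 0.256 and 0.102), without difamilast replicate 1 (0.129, 0.0972 and 0.0509), without difamilast replicate 2 (0.124, 0.0526 and 0.0706) or without difamilast replicate 3 (0.0777, 0.145 and 0.075). Mcm2 and Mcm6 also did not pass without stimulated replicate 1 (0.0523 and 0.0519) or 3 (0.063 and 0.063), nor Mcm2 without resting replicate 2 (0.0659) or Mcm6 without stimulated replicate 2 (0.0606). With only the compared groups fitted, Mcm2 and Mcm6 did not pass (0.0591 and 0.0801), nor did Mcm2 with the replicate block (0.0586) or after thinning (0.129), or Mcm6 with limma-voom (0.0637). Without resting replicate 1 the replication median was -0.33, with 7 genes lower.

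In wider lists of the same pathways more genes were called lower than higher. Of 50 other replication genes, 19 were lower in stimulated than in resting cells and 1 higher, with a median of -0.46. Over all tested genes 16.4% were lower and 15.3% higher in this comparison, with a median of 0.06. Rfc2, a subunit of the clamp loader that places Pcna on DNA, was at 45, 42.8 and 42.3 CPM in difamilast cells, 47.4, 38.7 and 38.2 CPM in stimulated cells and 106, 122 and 127 CPM in resting cells, a change of -1.52 ± 0.12 (adjusted p = 1.1e-07); it shares 952 exonic bases with Lat2 on the other strand. The checkpoint adaptor Clspn and the maintenance methylase Dnmt1 changed by -1.66 ± 0.25 and -0.88 ± 0.15 (adjusted p = 0.000125 and 0.000343). The gene that rose was Orc1, a subunit of the origin recognition complex, at 2.63, 2.78 and 2.56 CPM in difamilast cells, 1.81, 1.81 and 1.72 CPM in stimulated cells and 1.33, 0.44 and 0.887 CPM in resting cells, a change of 1.04 ± 0.35 (adjusted p = 0.0348). All its difamilast libraries were above all stimulated ones, but that step did not pass the test.

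Of 60 other mitosis genes, 32 were lower and 3 higher in stimulated against resting cells, with a median of -0.75. The shares over all tested genes were 16.4% lower and 15.3% higher, with a median of 0.06. Cdc25b, the phosphatase that activates Cdk1, was at 4.04, 3.65 and 3.75 CPM in difamilast cells, 3.43, 2.17 and 3.15 CPM in stimulated cells and 22.8, 16.6 and 14.8 CPM in resting cells, a change of -2.68 ± 0.22 (adjusted p = 2.1e-07), larger than that of any of the 46; it shares 92 exonic bases with Spef1. The kinesin Kif20b and the condensin subunit Ncapd2 changed by -1.67 ± 0.17 and -1.63 ± 0.19 (adjusted p = 2.71e-06 and 8.8e-06). The 3 genes that rose had separate groups; one of them, Ckap2l, shares 181 exonic bases with the antisense gene Gm14024. Cks2, a small Cdk-binding subunit, was at 92.9, 107 and 167 CPM in difamilast cells, 229.7, 272 and 227 CPM in stimulated cells and 28.2, 44.1 and 36.6 CPM in resting cells, a change of 2.74 ± 0.21 (adjusted p = 8.16e-08). Ckap2l, a spindle protein, changed by 1.51 ± 0.16, and Cenpl, a kinetochore protein, by 0.71 ± 0.13 (adjusted p = 4.13e-06 and 0.000746). In difamilast against stimulated cells Cks2 changed by -0.99 ± 0.19 (edgeR adjusted p = 0.00766) and Cenpl by 0.50 ± 0.13 (edgeR adjusted p = 0.0451). They were the 1 lower and 1 higher call among the 60, where 1.24% of all tested genes were lower and 2.21% higher. Of the 50 other replication genes edgeR and limma-voom called 0 and DESeq2 called 1, Clspn, higher. At an unadjusted p below 0.05, 3 of the 50 were lower and 2 higher, and 1 of the 60 was lower and 5 higher. Over all tested genes 7.95% were lower and 6.72% higher at that p. Difamilast libraries of Cks2 lay between the stimulated and the resting ones.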

How the data were processed

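The authors deposited raw read counts per gene symbol for all 9 libraries in a single table. Per the labels' protocols, mRNA was captured on oligo-dT beads and amplified over the whole transcriptome before fragmentation, so transcript length may affect yield; molecular identifiers are not named. GRCm38, cutadapt 4.1 and Bowtie2 2.4.5 are named in the submitters' processing notes, while how reads were counted, and whether strand was used, is not given in the sources used here. The aligner named does not splice alignments, which can lower counts at exon junctions depending on the reference used.

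Groups were taken from the sample titles. The counts were fitted with edgeR 4.0.16 (R 4.3.3; TMM scaling; filterByExpr with minimum count 10 and minimum total 15; robust quasi-likelihood test) over all 9 libraries, without covariates. P-values were Benjamini-Hochberg adjusted over 21341 tested genes and called at 0.05. The common biological coefficient of variation was 0.156. Library totals ran from 6261446 to 38098584; intervals and errors cover these libraries only. Positions, lengths and exonic overlaps came from GENCODE vM21 (GRCm38), copies from BLAST 2.17.0 (at least 95% identity over 200 bases), and promoters from RefSeq (GRCm38.p6). Libraries of 1 group differed by more than sampling noise (chi-square per degree of freedom 4.42 to 47.3). The fit was also run on simulated counts in which far fewer genes changed than were called here. The outcome of that run is not given, and it does not test the scaling between groups.

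The members, lists and tests were chosen with earlier results of these data known. Named genes are a panel of 20 members, the 4 largest called changes per set with stimulation, members called against their set, the 5 smallest p per set with difamilast, and up to 4 called genes per direction from 3 wider lists, of which some are not reported here; other members are named for their role. Alternatives were RLE scaling, DESeq2 1.42.0, limma-voom (limma 3.58.1), no filter, only the groups compared, a replicate block, removal of a transcript length trend, thinning to the shallowest library, a prior count of 0.5, and each library left out. No other test was run over the sets.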

Additional observations from a re-analysis of the deposited data

How the results depend on the processing

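The median of each set kept its sign in all 3 comparisons under every alternative. In stimulated against resting cells, 23 mitosis genes were lower after thinning to the shallowest library and 24 under each of the other 7 full alternatives, and 22 to 24 with 1 library left out; 11 to 13 replication genes were lower under the full alternatives and 9 to 14 with 1 library left out. Of the called genes, 22 of 24 mitosis and 10 of 13 replication genes passed in every alternative run. In difamilast against resting cells, 22 to 24 mitosis and 8 to 10 replication genes were lower under the full alternatives, and 21 to 24 and 7 to 12 with 1 library left out; 21 of 24 and 8 of 11 called genes passed in all. The count of mitosis genes higher in difamilast against stimulated cells was 2 when the low-count filter was dropped and 2 when only the groups compared were fitted, where Cenpa joined Kif23 (adjusted p = 0.0432 and 0.0147), and from 0 to 2 with 1 library left out, where Kif23 lost its call without stimulated replicate 1 or difamilast replicate 1. The replication median in difamilast against resting cells was -0.33 without resting replicate 1, against -0.60. The cause of these shifts was not tested. The prior count of 0.5 moved the mean of a set in a library by at most 0.02 on the log2 scale.

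Same-numbered libraries of different groups were not shown to be pairs. Their deviations from the group means correlated between -0.396 and 0.419 over 9 pairs, only 2 of them over 0.1. With the replicate number as a block, 24 mitosis and 11 replication genes were lower in stimulated against resting cells, 1 mitosis gene was higher in difamilast against stimulated cells, and 24 and 9 were lower in difamilast against resting cells.

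A promoter window from 100 bases before to 50 after the start, chosen after the data had been seen, gave a CHR in 81.0% of mitosis, 29.4% of replication and 12.9% of all promoters, and an E2F site in 4.76%, 35.3% and 5.72%. Genes at a few CPM, such as Ccne2, Cdc6 and Mybl2, are limited by depth, above all in resting replicate 3.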

Other observations

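Some of the genes that control the E2F and MuvB machinery differed between stimulated and resting cells. Of 23 E2F, pocket protein and MuvB regulators, 10 were lower in stimulated cells, 1 was higher and 12 were not called, with a median log2 fold change of -0.48. Over all tested genes 16.4% were lower and 15.3% higher, with a median of 0.06. Of the MuvB core genes, Lin54 was lower (-0.49 ± 0.12, edgeR adjusted p = 0.00544), while Lin9, Lin37, Lin52 and Rbbp4 did not pass (adjusted p = 0.31, 0.397, 0.595 and 0.0583). Rbl2, which encodes p130, the pocket protein of resting cells and of the DREAM complex, was at 43, 41.5 and 38.8 CPM in difamilast cells, 45.3, 40.5 and 41.2 CPM in stimulated cells and 110.1, 96.6 and 86.2 CPM in resting cells, a change of -1.21 ± 0.12 (edgeR adjusted p = 1.07e-06). Every resting library was far above the other 6. The E2F dimerisation partners Tfdp1 and Tfdp2 changed by -0.92 ± 0.15 and -1.29 ± 0.21, and the checkpoint kinase Chek2 by -1.19 ± 0.17 (adjusted p = 0.000246, 0.000222 and 8.53e-05). The gene that rose was Fbxw7, part of the ubiquitin ligase that degrades cyclin E, at 26.7, 24.9 and 33 CPM in difamilast cells, 38.2, 38.5 and 40.4 CPM in stimulated cells and 11, 17.6 and 16.8 CPM in resting cells, a change of 1.37 ± 0.17 (adjusted p = 1.93e-05). Rbl2 shares 693 exonic bases on opposite strands with Aktip, and Orc1 376 with Gm12743, so their counts may hold reads of both. In difamilast against stimulated cells edgeR, DESeq2 and limma-voom called 0 of the 23, and at an unadjusted p below 0.05, 1 was lower and 1 higher, where 7.95% of all tested genes were lower and 6.72% higher at that p. In difamilast against resting cells 10 of the 23 were lower and 1 higher, where 16.4% of all tested genes were lower and 16.4% higher. Fbxo5, the inhibitor of the anaphase promoting complex, was among the lower, at -1.19 ± 0.23 (edgeR adjusted p = 0.001).

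In difamilast against resting cells, 20 of the 50 other replication genes were lower and 2 higher, and 32 of the 60 other mitosis genes were lower and 3 higher. Over all tested genes 16.4% were lower and 16.4% higher in this comparison, with a median of 0.01. The medians were -0.61 for the other replication and -0.73 for the other mitosis genes. They lay closer together than the -0.60 and -1.21 of the replication and mitosis sets, so the gap between the sets was small in these wider lists. Dut, which keeps uracil out of DNA, changed by -1.17 ± 0.18, and the polymerase subunit gene Pold1 by -1.34 ± 0.26 (adjusted p = 0.000135 and 0.000966). Slbp, the histone mRNA binding protein, was higher by 0.36 ± 0.12 (adjusted p = 0.0318) with overlapping libraries. Ckap2l and Cenpl were higher by 1.98 ± 0.16 and 1.21 ± 0.13 (adjusted p = 2.22e-07 and 4.82e-06).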
